A study of Mus musculus with 2 samples.

Results

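Plasmacytoid dendritic cells (pDC) were described among CD45.1+ cells that a flow sorter took out of pancreata of NOD/ShiLtJ females. A cell barcode was taken as a pDC when it held at least 3 unique molecular identifiers (UMIs, each marking 1 captured RNA molecule) of Siglech, at most 2 of Cd79a and at most 1 over Cd3d, Cd3e and Cd3g together. Barcodes with fewer than 200 detected genes or with more than 10% of UMIs in mitochondrial genes were left out first. The rule selected 64 of 3913 kept barcodes, 44 of 2804 at 12 weeks of age and 20 of 1109 at 7 weeks. Because the cells were chosen on their own measured values, everything that sets them apart from other cells is given as a description, with no test.

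pDC are dendritic cells of lymphoid appearance that sense viral and self nucleic acids in endosomes, mainly through Toll-like receptors 7 and 9, and can secrete large amounts of type I interferon. The basic helix-loop-helix factor TCF4 (E2-2) sets and maintains their identity, and ID2, an inhibitor of such factors, favours conventional dendritic cells. NOD mice develop autoimmune diabetes spontaneously, and pDC are among the leukocytes that infiltrate their islets.

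The study profiled pancreatic CD45.1+ cells of 12-week-old and 7-week-old female NOD mice with droplet 3′ single-cell RNA sequencing, 1 library per age. CD45.1 is the form of the leukocyte surface antigen CD45 carried by this strain, so all cells compared here passed the same leukocyte gate; how many mice each library pooled is not given here. The 2 libraries held 19288252 UMIs in 2812 barcodes at 12 weeks and 8701184 UMIs in 1113 barcodes at 7 weeks. With 1 library per age no difference between ages could be tested, and every interval below is a 95% interval that covers counting error only.

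The pDC gave 338715 UMIs at 12 weeks and 173782 UMIs at 7 weeks, with a median of 7563 and 9571.5 UMIs per cell and a range of 3281 to 13270 over both libraries. They were compared with the other myeloid cells, the barcodes with at least 10 UMIs of H2-Aa, at most 2 of Cd79a and at most 2 of Siglech, of which there were 240 at 12 weeks and 95 at 7 weeks. These comparison cells held transcripts of macrophages (C1qa, 3946 UMIs) and of conventional dendritic cells (Xcr1, 295 UMIs; Ccr7, 266 UMIs) and had a median of 12133.5 UMIs at 12 weeks and 13582 UMIs at 7 weeks. Among them, 33 of 240 and 38 of 95 held more than 1 CD3 UMI, while the pDC were limited to 1, so the CD3 genes were lower in pDC by construction. B cells (758) and T cells (2549), chosen by Cd79a and the CD3 genes, served as background types, with median depths of 4623 and 4825 UMIs at 12 weeks and of 5221.5 and 5604 UMIs at 7 weeks. Only 2 barcode sequences occurred in both libraries, and 0 of them was a pDC.

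Siglech separated the pDC from other barcodes with few cells near the limit. Siglech encodes a sialic acid-binding lectin of the mouse pDC surface. It was at 0 UMIs in 3770 kept barcodes, at 1 UMI in 54 and at 2 UMIs in 4, whereas pDC held a median of 16.5 UMIs with a range of 3 to 35. Just inside the limit, 2 pDC of the 7 week library held 3 Siglech UMIs. They held 15 and 11 UMIs of Bst2, 3 and 8 of Tcf4, and 6 and 7 of Irf8. The second, with the lowest Bst2 count of any pDC, had 0 UMIs of Cox6a2. It also held 38 UMIs of Ly6d, 151 of Ly6a and 17 of Tmem176a, the highest counts of these 3 genes in any pDC. Just outside the limit, the 4 barcodes with 2 Siglech UMIs held 3 to 18 UMIs of Bst2, 0 to 10 of Tcf4 and 0 to 11 of Irf8. Of the 4, 3 were also over the CD3 limit. At 12 weeks the lowest Siglech count of a pDC was 6. A further 21 barcodes had 3 or more Siglech UMIs and were set aside by the CD3 limit, 11 at 12 weeks and 10 at 7 weeks. They held 2 to 55 CD3 UMIs (median 12), with a median of 13 Siglech and 40 Bst2 UMIs, and whether they are pDC carrying T cell RNA, doublets or another cell type was not tested.

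**Figure D1:**
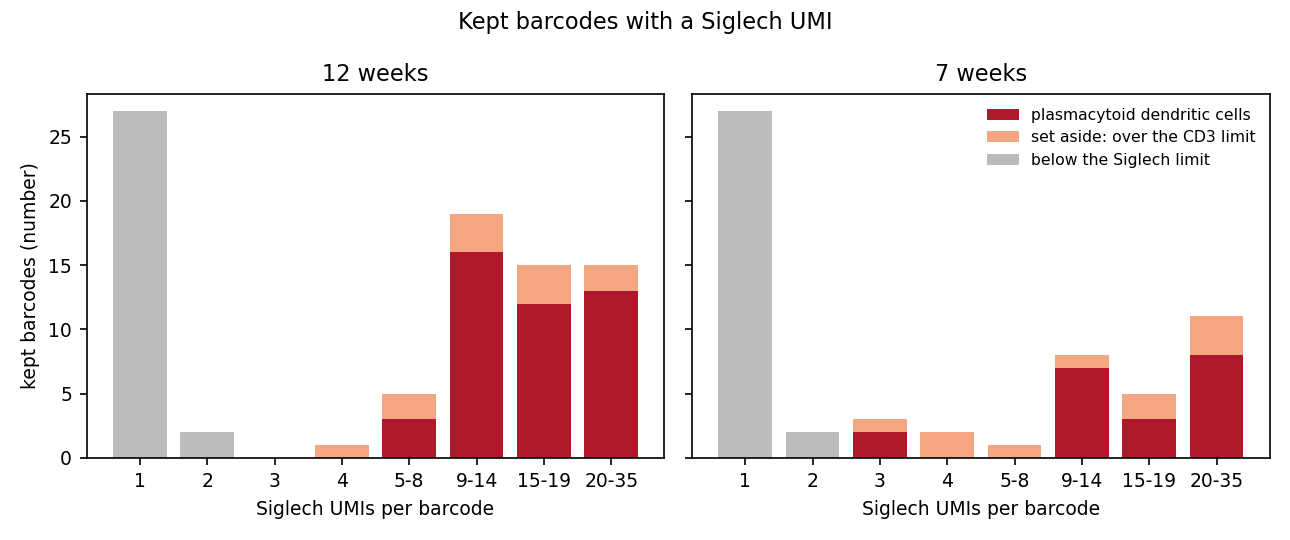
Number of kept barcodes (vertical axis) by their Siglech UMIs (horizontal axis, in classes) for the 12 week library (left) and the 7 week library (right); barcodes at 0 are not drawn. Stacked bars give pDC, barcodes set aside by the CD3 limit and barcodes below the Siglech limit, and most of the 64 pDC lie at 9 or more Siglech UMIs.

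The other markers given for pDC were high in these cells. Bst2, the interferon-inducible tethering protein recognised by the PDCA-1 antibody, had 5243 CPM at 12 weeks and 4719 CPM at 7 weeks in pDC, against 335 CPM at 12 weeks and 252 CPM at 7 weeks in other myeloid cells (CPM, UMIs of the gene per 1000000 UMIs summed over the cells of a group). Tcf4 had 1027 CPM at 12 weeks and 1070.3 CPM at 7 weeks in pDC, against 83.8 CPM at 12 weeks and 83.9 CPM at 7 weeks in other myeloid cells. Ccr9, the receptor of the chemokine CCL25, had 824 CPM at 12 weeks and 771 CPM at 7 weeks in pDC, against 22 CPM at 12 weeks and 19.1 CPM at 7 weeks in other myeloid cells. All 3 were higher in pDC than in the other myeloid cells in each library. The pooled ratios of pDC over other myeloid cells were 16.4 for Bst2 (interval 15.3 to 17.5), 12.4 for Tcf4 (10.8 to 14.2) and 38.2 for Ccr9 (30.4 to 48.6). Every pDC had a Bst2 and a Tcf4 UMI, and 61 of 64 had a Ccr9 UMI. Siglech, which the rule used, had 2279 CPM at 12 weeks and 1933 CPM at 7 weeks in pDC, against 4.73 CPM at 12 weeks and 9.15 CPM at 7 weeks in other myeloid cells.

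The promoters of the 3 markers below are shown because these genes define the cells; each is the window of 250 bases before to 50 after the annotated start, from RefSeq on GRCm38.p6, written in the direction of the gene. Capitals mark the E-box letters CACCTG, a core that basic helix-loop-helix factors such as TCF4 can bind, found on either strand and so also printed as CAGGTG. In Bst2 they also mark a pair of GAAA on 1 strand with any 2 bases between, a form of the interferon-stimulated response element, in which 2 matches overlap in a run of 16 letters. Siglech lies at chr7:55767934-55768233 on the plus strand, Ccr9 at chr9:123766961-123767260 on the plus strand and Bst2 at chr8:71537423-71537722 on the minus strand.
Siglech: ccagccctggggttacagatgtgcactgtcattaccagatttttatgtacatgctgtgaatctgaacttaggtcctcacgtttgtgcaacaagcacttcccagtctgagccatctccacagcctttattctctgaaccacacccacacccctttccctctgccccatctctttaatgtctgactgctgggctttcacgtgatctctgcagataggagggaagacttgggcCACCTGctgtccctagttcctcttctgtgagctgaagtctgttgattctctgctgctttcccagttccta
Ccr9: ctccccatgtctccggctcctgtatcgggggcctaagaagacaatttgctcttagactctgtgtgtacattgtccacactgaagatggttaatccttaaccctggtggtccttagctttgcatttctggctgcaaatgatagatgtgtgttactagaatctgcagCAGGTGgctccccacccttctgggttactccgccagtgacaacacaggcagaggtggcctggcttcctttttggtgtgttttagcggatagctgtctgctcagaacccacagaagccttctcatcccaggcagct
Bst2: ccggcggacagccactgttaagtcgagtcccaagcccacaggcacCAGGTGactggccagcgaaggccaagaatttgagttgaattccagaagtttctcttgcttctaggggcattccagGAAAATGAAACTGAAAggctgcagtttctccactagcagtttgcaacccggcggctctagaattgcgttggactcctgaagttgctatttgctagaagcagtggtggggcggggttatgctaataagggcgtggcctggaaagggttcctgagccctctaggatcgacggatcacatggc
CACCTG in either direction was in 20.2% of all 32851 windows of this length and in 19.1% of 769 windows of genes higher in pDC. Among 8531 windows of genes with at least 30 UMIs over both cell groups, it was in 16.6%. It was in 7 of the 14 windows found for the markers and the 15 leading genes named below, of which 13 of 19 matched. CAGCTG, another E-box core, was in 16.3% of all windows and 16.6% of windows of genes higher in pDC, and the spaced GAAA pair in 3.44% and 2.99%. In the 8531 windows these 2 were in 14.2% and 3.32%, and the differences were not tested. A match describes the letters only.

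Markers of macrophages, B cells and T cells were low in pDC beside the cells they mark, while those of conventional dendritic cells were divided. Summed over their list, the macrophage and monocyte markers reached 924 CPM at 12 weeks and 857 CPM at 7 weeks in pDC, against 9302 and 4718 CPM in the other myeloid cells. Of the pDC sum, Ccr2 gave 502 and 391 CPM and Ly6c1 289 and 316 CPM. Csf1r, the receptor of macrophage colony-stimulating factor, had 0 and 1 UMIs in pDC, and Adgre1 (F4/80) and Ms4a7 had 0 in each library. Cd79a and the CD3 genes were limited by the choice of the cells, so B and T cell markers are given without them. The other 8 B cell markers summed to 17.7 and 34.5 CPM in pDC, against 3489.7 and 3159 CPM in B cells and 52.4 and 44.2 CPM in other myeloid cells. The other 6 T cell markers summed to 85.6 and 51.8 CPM in pDC, against 1468 and 1310.3 CPM in T cells and 69.3 and 266 CPM in other myeloid cells. The conventional dendritic cell markers summed to 1319.7 and 1393 CPM in pDC, above the 919 and 788 CPM of the other myeloid cells, and 2 of the 10 were higher and 5 lower. Zbtb46 was at 0, Xcr1, Ccr7 and Batf3 had 1 UMI each and Fscn1 had 3. In the same list Cd209a was 6.08-fold and Clec10a 7.08-fold higher in pDC than in other myeloid cells, while Flt3, the receptor needed by all dendritic cells, had a ratio of 1.87 and did not pass 2-fold in each library. Cd209a and Cd209d are near-identical relatives, and reads could be split between them.

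The share of pDC did not differ between ages beyond counting error. At 12 weeks 1.57% of kept barcodes were pDC (exact Clopper-Pearson interval 1.14% to 2.10%), and at 7 weeks 1.80% (1.1% to 2.77%). The ratio of 12 over 7 weeks was 0.870, with an interval of 0.502 to 1.56, so a change smaller than these bounds was not detectable at this depth.

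A gene was counted as higher or lower in pDC when its ratio to the other myeloid cells was at least 2-fold in the same direction in each library, among 8594 genes with at least 30 UMIs over both cell groups and both libraries. By this rule 739 genes (8.6%) were higher and 563 genes (6.55%) were lower in pDC, and 165 passed 2-fold in opposite directions in the 2 libraries. The median log2 ratio over all measured genes was 0.08. Scaling by the median of gene ratios in place of the UMI total moved this median to -0.15 and the counts to 528 higher and 752 lower genes. Counts of a list below are read beside these shares, and where a group held no UMI of a gene, 3 counts over the group were used as the floor. At 7 weeks this floor was 17.3 CPM in pDC and 2.29 CPM in other myeloid cells. A gene at 0 in both groups there, such as Saa3, thus had a ratio of 7.54 and passed 2-fold. Some of the 165 genes passed 2-fold at 7 weeks through the floor alone. Cxcl13 was 1 of them, with 0 UMIs in pDC against 2 in other myeloid cells and a ratio of 11.3. A gene at 0 in pDC could count as lower only where its other myeloid level was at least 2-fold above the pDC floor. The 563 lower genes thus leave out genes at 0 in pDC with few UMIs in other myeloid cells. C5ar1 is an example, with 0 UMIs in pDC against 55 at 12 weeks and 10 at 7 weeks.

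**Figure D2:**
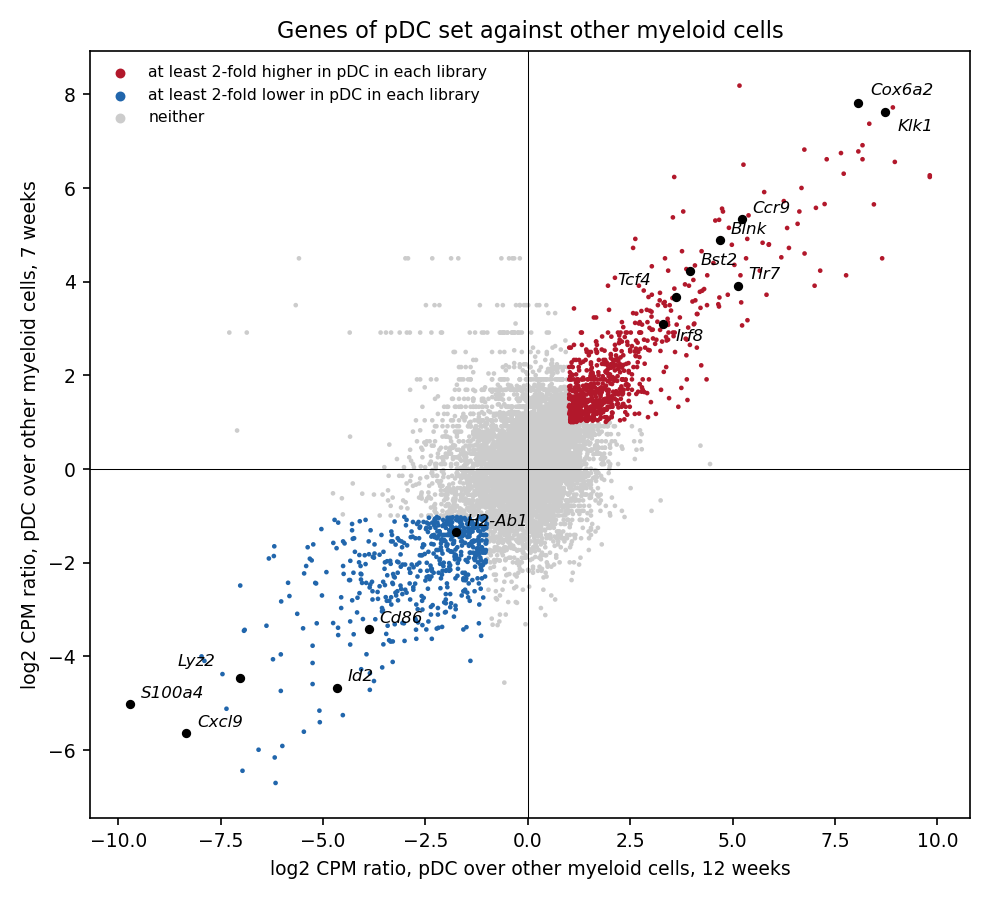
Log2 CPM ratio of pDC over other myeloid cells at 12 weeks (horizontal axis) and at 7 weeks (vertical axis), 1 point per measured gene, with some genes of the text labelled. Of 8594 genes, 739 are higher and 563 lower in pDC by at least 2-fold in each library.

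Most transcription factors of the pDC lineage were higher in pDC. Of 14 measured members (15 listed), 9 were higher and 1 lower, with a median log2 ratio of 1.83. Irf8, a factor that pDC share with a class of conventional dendritic cells, had 3717 CPM at 12 weeks and 3217 CPM at 7 weeks in pDC, against 376 CPM at 12 weeks and 376 CPM at 7 weeks in other myeloid cells. Runx2, a factor of pDC development and exit from bone marrow, had 266 CPM at 12 weeks and 293 CPM at 7 weeks in pDC, against 18.6 CPM at 12 weeks and 19.1 CPM at 7 weeks in other myeloid cells. Spib, an ETS-family factor that promotes pDC over B cell fate, had 292 CPM at 12 weeks and 259 CPM at 7 weeks in pDC, against 46.6 CPM at 12 weeks and 25.9 CPM at 7 weeks in other myeloid cells. The lowest pDC value exceeded the highest other myeloid value for each of the 3 genes, and the pooled ratios were 9.44 (8.82 to 10.1) for Irf8, 14.7 (11.1 to 19.6) for Runx2 and 6.98 (5.55 to 8.75) for Spib. Bcl11a, a zinc-finger factor upstream of Tcf4, was 6.32-fold higher, Mef2c 4.32-fold, Xbp1, the factor of the unfolded protein response, 3.90-fold, Irf7, the main inducer of interferon-alpha genes, 2.32-fold, and Zeb2, a repressor of Id2, 2.28-fold. Ahr, the aryl hydrocarbon receptor, was the lower member, with 0 and 2 UMIs in pDC against 63 and 52 in other myeloid cells. Ets1, Ikzf1, Stat3 and Cbfa2t3 did not pass 2-fold in each library (pooled ratios 3.22, 1.67, 0.953 and 0.627).

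Most factors of conventional dendritic cells and other myeloid cells were lower. Of 12 measured (12 listed), 0 were higher and 8 lower, with a median log2 ratio of -2.55. Id2, the inhibitor of TCF4, had 29.5 CPM at 12 weeks and 23 CPM at 7 weeks in pDC, against 750.0 CPM at 12 weeks and 586 CPM at 7 weeks in other myeloid cells. Spi1 (PU.1), a factor of myeloid cells, had 53.1 CPM at 12 weeks and 74.8 CPM at 7 weeks in pDC, against 588 CPM at 12 weeks and 498 CPM at 7 weeks in other myeloid cells. Both were far below the other myeloid cells at each age, with ratios of 0.0390 (0.0213 to 0.0656) and 0.108 (0.0731 to 0.154). Batf3, required for cross-presenting dendritic cells, had 1 UMI in all pDC, against 534 in the other myeloid cells (ratio 0.0156, 0.000394 to 0.0873). Zbtb46, a factor of conventional dendritic cells, was at 0 in pDC and, with the floor in place of 0, 5.92-fold lower. Relb (0.132-fold of the other myeloid level), Klf4 (0.172) and Nr4a1 (0.302) were also among the lower members, with 1 and 5 UMIs of Klf4 and 3 and 7 of Nr4a1 in pDC at 12 and 7 weeks.

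Surface and adhesion molecules known from pDC followed the same direction for most of the list. Of 25 measured members (30 listed), 18 were higher and 1 lower, with a median log2 ratio of 2.48; Siglech, on which the cells were chosen, is among them. Ly6d, a glycolipid-anchored protein of lymphoid progenitors, had 762 CPM at 12 weeks and 691 CPM at 7 weeks in pDC, against 5.41 CPM at 12 weeks and 36.6 CPM at 7 weeks in other myeloid cells. Fcrla, an intracellular Fc receptor-like protein, had 381 CPM at 12 weeks and 270.5 CPM at 7 weeks in pDC, against 4.73 CPM at 12 weeks and 7.63 CPM at 7 weeks in other myeloid cells. Havcr1 (TIM-1), a phosphatidylserine receptor, had 139 CPM at 12 weeks and 97.8 CPM at 7 weeks in pDC, against 1.35 CPM at 12 weeks and 1.53 CPM at 7 weeks in other myeloid cells. Each was higher in pDC at each age, with ratios of 49.2, 61.1 and 88.9, and the mean over cells of each cell's CPM gave 22.2 for Ly6d and 39.2 for Fcrla. Cd209d, a C-type lectin, was 42.9-fold higher and Atp1b1, a subunit of the sodium-potassium pump, 42.3-fold. Lair1, an inhibitory collagen receptor, was 10.4-fold higher, Ly6c2 9.94-fold, Lag3, an inhibitory receptor on pDC and T cells, 5.57-fold, Ptprs 5.23-fold and Klra17 (Ly49Q) 5.06-fold. Ly6c2 and Klra17 have near-identical relatives, so their counts are less certain. Ptprcap, a CD45-associated protein, was 6.18-fold higher, and 11.7-fold against other myeloid cells with at most 1 CD3 UMI. The ratios within a library were 10.9 at 12 weeks and 2.86 at 7 weeks for Ptprcap, 59.2 at 12 weeks and 27.9 at 7 weeks for Cd209d, 7.54 at 12 weeks and 3.08 at 7 weeks for Lag3 and 7.18 at 12 weeks and 3.13 at 7 weeks for Ptprs.

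The T cell coreceptor genes Cd8a and Cd4, both known in mouse pDC, were higher than in the other myeloid cells. Cd8a had 679 CPM at 12 weeks and 420.1 CPM at 7 weeks in pDC, against 27.0 CPM at 12 weeks and 36.6 CPM at 7 weeks in other myeloid cells, a ratio of 19.7 (16 to 24.4). Cd4 had 171 CPM at 12 weeks and 184 CPM at 7 weeks in pDC, against 35.1 CPM at 12 weeks and 54.2 CPM at 7 weeks in other myeloid cells, a ratio of 4.28 (3.29 to 5.56). Each pDC held at most 1 CD3 UMI by the rule that chose the cells, and the source of the coreceptor RNA was not tested. Cd7 was 3.56-fold and Itgal, the alpha chain of LFA-1, 2.68-fold higher. Itgae, an integrin of cross-presenting dendritic cells and tissue T cells, was at 0 in pDC and, with the floor in place of 0, 5.08-fold lower.

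**Figure D3:**
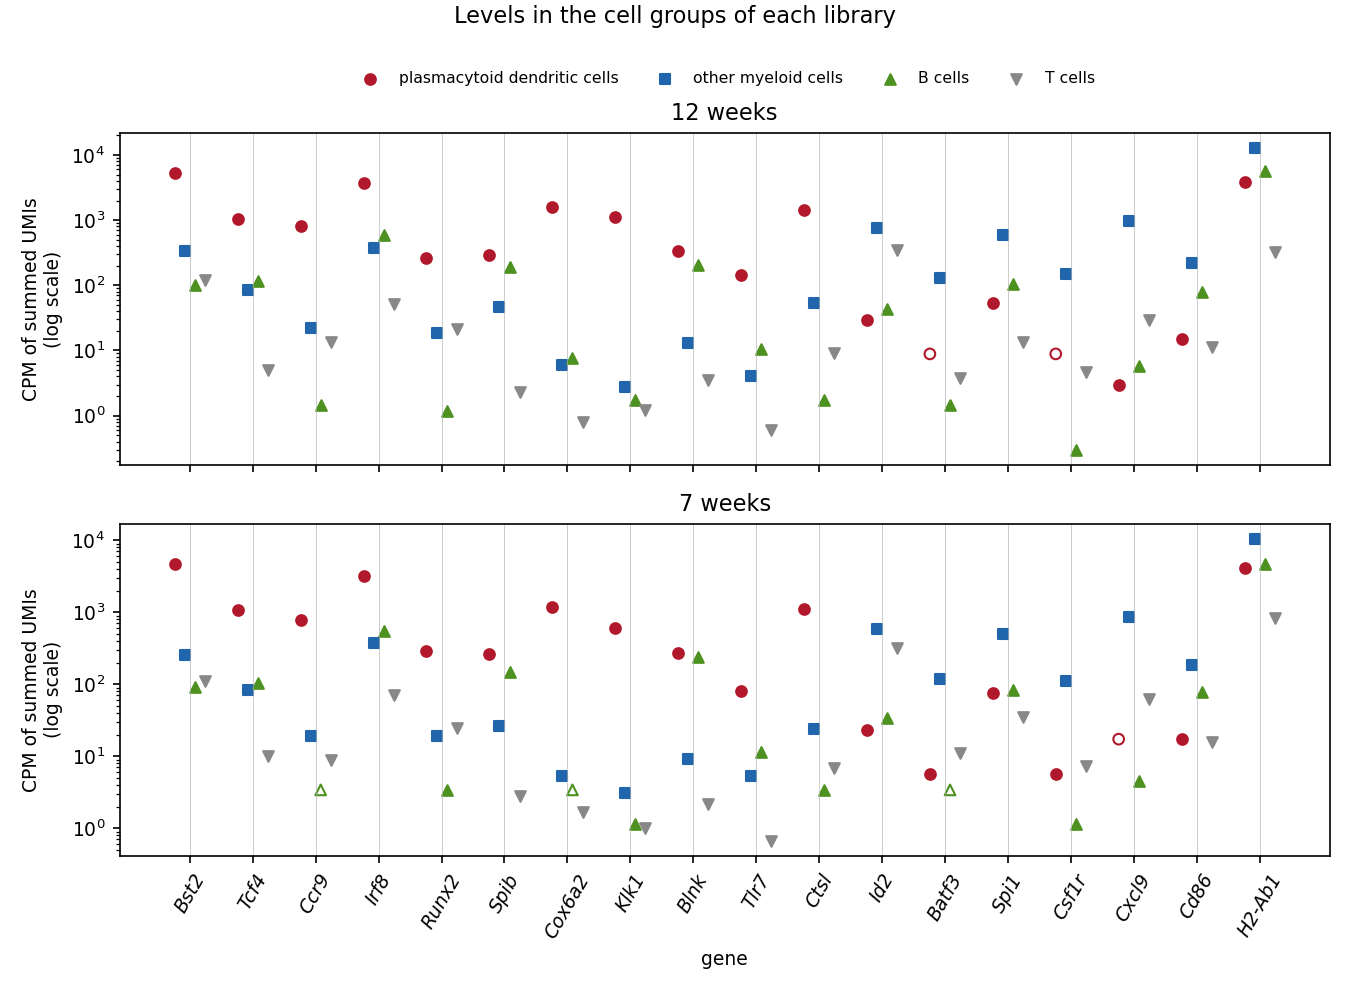
CPM (log axis) of 18 genes in pDC, other myeloid cells, B cells and T cells of the 12 week library (top) and the 7 week library (bottom); a hollow symbol marks a group with no UMI, drawn at 3 counts of that group. Bst2 to Ctsl lie higher in pDC than in other myeloid cells in each library, and Id2, Spi1, Cd86 and H2-Ab1 lower.

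Chemokine and lipid receptors were divided. Of 13 measured (14 listed), 4 were higher and 4 lower, with a median log2 ratio of 0.43. Cxcr3, the receptor of CXCL9 and CXCL10, had 177 CPM at 12 weeks and 149.6 CPM at 7 weeks in pDC, against 13.2 CPM at 12 weeks and 45.0 CPM at 7 weeks in other myeloid cells, a ratio of 7.31, or 15.7 against other myeloid cells with at most 1 CD3 UMI. S1pr4, a sphingosine-1-phosphate receptor, was 11.6-fold higher (18.8 on the same restriction) and Ccr2, the receptor of CCL2, 3.42-fold. In the libraries apart the S1pr4 ratio was 20.6 (13.0 to 33.3) at 12 weeks and 3.77 (1.89 to 7.23) at 7 weeks, and that of Cxcr3 13.4 and 3.32. Lower were Ccr7, which guides dendritic cells to lymph nodes, Ccr1, Ccr6 and Cx3cr1. In pDC these had 1, 1, 3 and 0 UMIs, against 266, 240, 205 and 272 in other myeloid cells. Cxcr4, Cmklr1, S1pr1 and Gpr183 passed 2-fold in neither direction.

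Genes of endosomal nucleic acid sensing were higher in part. Of 24 measured (25 listed), 7 were higher and 3 lower, with a median log2 ratio of 0.64. Tlr7, the sensor of single-stranded RNA, had 142 CPM at 12 weeks and 80.6 CPM at 7 weeks in pDC, against 4.06 CPM at 12 weeks and 5.34 CPM at 7 weeks in other myeloid cells. Pacsin1, an adaptor of endocytic membrane traffic needed for the TLR9 response of pDC, had 419 CPM at 12 weeks and 386 CPM at 7 weeks in pDC, against 5.75 CPM at 12 weeks and 16.8 CPM at 7 weeks in other myeloid cells. Both were higher in pDC at each age, by 27.2-fold (16 to 48.1) and 44.6-fold (31.6 to 64.6). The lysosomal proteases Ctsl and Ctsb, which process endosomal receptors, were 29.9-fold and 4.64-fold higher. Without the 50 comparison cells that held more than 2 C1q UMIs, the ratio was 44.1 for Tlr7, 72.2 for Ctsl and 8.88 for Ctsb. Pld4, an endosomal exonuclease, was 4.12-fold higher and Unc93b1, the chaperone that brings these receptors to endosomes, 2.26-fold. Tlr9, the sensor of unmethylated DNA, had 1 UMI in all pDC and 0 in the other myeloid cells, too few for a comparison. Dnase1l3, Plscr1 and Pld3 were lower, with ratios of 0.0747, 0.252 and 0.409; the Pld3 ratio was 0.779 without the C1q cells. Dnase1l3 was at 0.0137 at 12 weeks (0.000346 to 0.0764), which rests on 1 UMI in pDC, and at 0.319 at 7 weeks (0.115 to 0.711).

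Pattern recognition genes outside this pathway were not higher in pDC. Of 15 measured (20 listed), 0 were higher and 4 lower (Tlr2, Ifih1, Clec4e and Nod1), with a median log2 ratio of -2.26. In the libraries apart this median was -1.22 at 12 weeks and -0.36 at 7 weeks. Tlr2, the sensor of bacterial lipoproteins, had 5 UMIs in pDC, against 215 in the other myeloid cells. Tlr3, Tlr13 and Nod2 were at 0 in pDC without passing the 2-fold rule in each library. Tmem173 (STING), the adaptor of cytosolic DNA sensing, had a ratio of 1.08 (0.783 to 1.45), so its levels did not differ beyond counting error.

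No transcript of an interferon-alpha gene was captured. Of 20 type I and type III interferon genes, 19 had 0 UMIs in all 64 pDC, Ifnb1 included, which allows each a level of up to 5.85 CPM over both libraries. Ifnk, a keratinocyte interferon, had 3 UMIs in pDC and 4 in other myeloid cells, and Ifnb1 had 4 UMIs in other myeloid cells. The interferon-alpha genes are near-identical copies, and reads shared among them could have been dropped in counting.

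Genes induced by interferons were mostly not higher in pDC. In the type I interferon response list of 36 measured genes (44 listed), 4 were higher (Bst2, Irf7, Stat2 and Trim30a) and 9 lower, with a median log2 ratio of -1.02. In the libraries apart this median was -0.95 at 12 weeks and -0.02 at 7 weeks, against 0.09 and 0.17 over all measured genes. Isg15, a ubiquitin-like protein, had 32.5 CPM at 12 weeks and 46.0 CPM at 7 weeks in pDC, against 128 CPM at 12 weeks and 142 CPM at 7 weeks in other myeloid cells. Stat2, a signal carrier of this pathway, had 76.8 CPM at 12 weeks and 92.1 CPM at 7 weeks in pDC, against 34.8 CPM at 12 weeks and 43.5 CPM at 7 weeks in other myeloid cells. Isg15 was lower in pDC (0.280-fold) and Stat2 higher (2.19-fold) at each age. Zbp1, Ifi204, Xaf1 and Phf11b were lower with ratios of 0.188, 0.167, 0.255 and 0.319, and Oasl2, Rtp4, Slfn5 and Ifih1 with 1, 1, 1 and 2 UMIs in all pDC, against 153, 245, 144 and 100 in other myeloid cells. Ifit1, Ifit3, Oas1a, Isg20 and Rsad2 were at 0 UMIs in pDC. Of 22 measured genes of the interferon-gamma response (23 listed), 0 were higher and 8 lower, with a median log2 ratio of -1.26. Cxcl9, a CXCR3 ligand, had 1 UMI in pDC, against 3987 in other myeloid cells, and Cxcl10 1, against 1206. Gbp2 (0.0851-fold of the other myeloid level), Gbp3 (0.179), Gbp7 (0.106), Ciita, the activator of MHC class II genes (0.164), and Cd274 (PD-L1; 0.103) were among the lower members. At 12 and 7 weeks the UMIs of pDC against those of other myeloid cells were for Ifi204 1 and 4 against 165 and 84, for Gbp2 2 and 7 against 677 and 204 and for Cd274 2 and 2 against 244 and 80. Guanylate-binding proteins are near-identical copies in part. The receptor chains that start these responses differed: Ifnar1 and Ifnar2, of type I interferon, were 2.99-fold and 5.07-fold higher in pDC, whereas Ifngr1, of interferon-gamma, was lower with 50.2 CPM at 12 weeks and 28.8 CPM at 7 weeks in pDC, against 302 CPM at 12 weeks and 188 CPM at 7 weeks in other myeloid cells.

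Most measured cytokine and chemokine genes were lower in pDC. Of 18 measured (26 listed), 1 was higher and 11 were lower, with a median log2 ratio of -2.40. Ccl4, a chemokine of activated leukocytes, had 325 CPM at 12 weeks and 426 CPM at 7 weeks in pDC, against 110.2 CPM at 12 weeks and 106 CPM at 7 weeks in other myeloid cells, a ratio of 3.30 (2.76 to 3.92). Il1b had 3 UMIs in pDC, against 1142 in other myeloid cells, Tnf 4 against 157, and Cxcl16 4 against 1543. Ccl2, Ccl17 and Ccl22 were at 0 in pDC and, with the floor in place of 0, 6.20-fold, 8.0-fold and 6.84-fold lower. Ccl5 was lower with a ratio of 0.194, but at 1.14 with any number of CD3 UMIs allowed in pDC. Il12a had 5 and 2 UMIs in pDC at 12 and 7 weeks and 0 in other myeloid cells, below the limit of 30 UMIs.

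Antigen presentation genes fell on different sides of the rule. The 9 of 15 (15 listed) MHC class II and loading genes that were lower (median log2 ratio -1.49) follow in part from the choice of the comparison cells by H2-Aa. Of the pDC, 58 of 64 held at least 10 H2-Aa UMIs. H2-Ab1 had 3811 CPM at 12 weeks and 4120.1 CPM at 7 weeks in pDC, against 12761 CPM at 12 weeks and 10532 CPM at 7 weeks in other myeloid cells. H2-Ob, part of the peptide-loading regulator DO, had 2 UMIs in pDC, against 499. Of 19 measured MHC class I genes (19 listed), 0 were higher and 0 lower, with a median log2 ratio of -0.15. Of 10 measured costimulatory and inhibitory ligands (12 listed), 1 was higher, Cd47, the signal against phagocytosis (2.17-fold), and 5 were lower. Cd86, a ligand of CD28, had 14.8 CPM at 12 weeks and 17.3 CPM at 7 weeks in pDC, against 218 CPM at 12 weeks and 185 CPM at 7 weeks in other myeloid cells, a ratio of 0.0752 (0.0324 to 0.149). Cd40 had 4 UMIs in pDC, against 630, and Cd83, a marker of mature dendritic cells, 2, against 562. Cd80 was at 0 in pDC.

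Genes of lymphoid development were higher in pDC for a part of the list. Of 18 measured (24 listed), 9 were higher and 1 lower (Cd5), with a median log2 ratio of 0.95. With any number of CD3 UMIs allowed in pDC, the Cd5 ratio was 1.61. Dntt, the enzyme that adds nucleotides at antigen receptor junctions, had 46 UMIs at 12 weeks and 9 at 7 weeks in pDC, against 1 and 0 in other myeloid cells. Ptcra, the pre-T cell receptor alpha chain, had 44 and 6 UMIs in pDC and 0 in other myeloid cells. With the floor in place of 0 it was 139-fold higher, and the interval began at 109. In each library the pDC count of both genes was above that of the other myeloid cells. Blnk, the B cell linker adaptor, had 339.5 CPM at 12 weeks and 270.5 CPM at 7 weeks in pDC, against 13.2 CPM at 12 weeks and 9.15 CPM at 7 weeks in other myeloid cells, a ratio of 26.5, or 57.6 without the C1q cells. Il7r, the interleukin-7 receptor, had 446 CPM at 12 weeks and 282 CPM at 7 weeks in pDC, against 24.0 CPM at 12 weeks and 25.9 CPM at 7 weeks in other myeloid cells, a ratio of 15.9 (12.5 to 20.3). Cd180 (5.44-fold), the tetraspanin Cd37 (4.61) and Cd38 (2.35) were also higher. Rag1 and Rag2, the recombinase of antigen receptor genes, had 0 UMIs in pDC, and Cd79b, part of the B cell receptor, had a ratio of 1.21 (0.705 to 1.96).

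**Figure D4:**
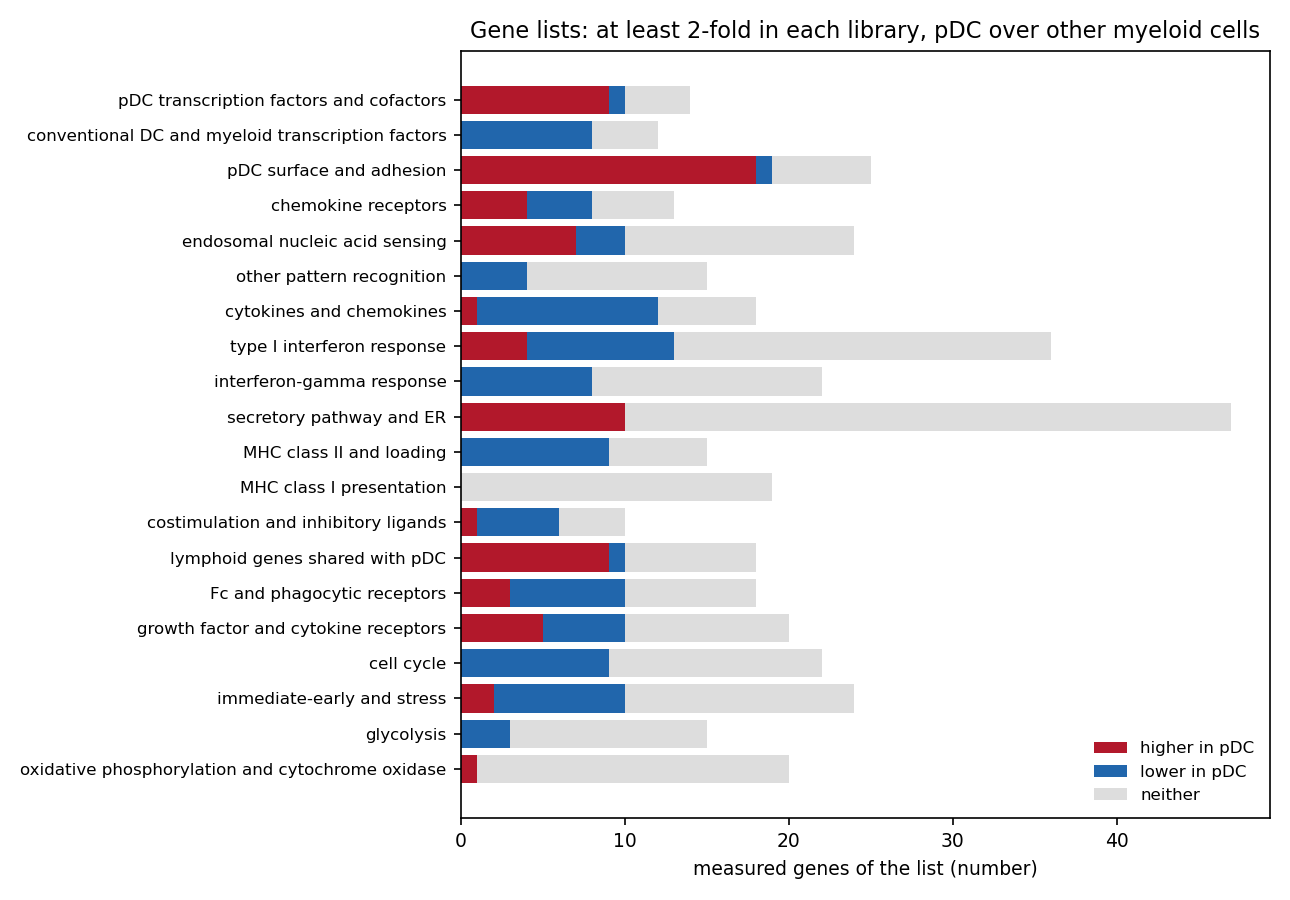
For each gene list, the number of measured members (horizontal axis) that were at least 2-fold higher in pDC than in other myeloid cells in each library, at least 2-fold lower, or neither. Of the pDC transcription factors 9 of 14 and of the surface genes 18 of 25 were higher, and 8 of 12 conventional dendritic cell and myeloid factors were lower.

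Receptors for growth factors and immune complexes were divided. Of 20 measured growth factor and cytokine receptors (20 listed), 5 were higher and 5 lower. Csf2rb2, the mouse interleukin-3 receptor beta chain, was 7.97-fold and Tgfbr1 3.23-fold higher. Kit and Csf1r had 1 and 1 UMI in pDC, against 266 and 586. Of 18 measured Fc and phagocytic receptors (18 listed), 3 were higher and 7 lower. Tyrobp (DAP12), the adaptor through which SIGLEC-H signals, had 6094 CPM at 12 weeks and 5375 CPM at 7 weeks in pDC, against 1426 CPM at 12 weeks and 1176 CPM at 7 weeks in other myeloid cells, a ratio of 4.33 (4.15 to 4.53). Clec12a, an inhibitory lectin, was 3.94-fold higher (4.52 at 12 weeks and 2.61 at 7 weeks). Fcgr3 and Fcgr1, activating receptors of immunoglobulin G, had 1 and 1 UMI in pDC, against 369 and 491. Aif1 (0.0179-fold of the other myeloid level), Lst1 (0.0505) and Sirpa (0.386) were lower. Aif1 had 1 and 5 UMIs in pDC at 12 and 7 weeks, against 2193 and 604 in other myeloid cells, and Lst1 3 and 8, against 1300 and 514.

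A part of the secretory pathway genes was higher in pDC. Of 47 measured (48 listed), 10 were higher and 0 lower, with a median log2 ratio of 0.61. Besides Xbp1, the largest ratios were those of Tmed3, a carrier of secretory cargo, and Tram1, part of the translocation channel. Tmed3 had 546 CPM at 12 weeks and 316 CPM at 7 weeks in pDC, against 119 CPM at 12 weeks and 102 CPM at 7 weeks in other myeloid cells. Tram1 had 369 CPM at 12 weeks and 299 CPM at 7 weeks in pDC, against 118 CPM at 12 weeks and 95.3 CPM at 7 weeks in other myeloid cells. The ratios were 4.11 and 3.11. Hsp90b1, the chaperone that folds Toll-like receptors, was 2.30-fold, Spcs2 2.48-fold, Edem2 2.40-fold and Txndc5 2.40-fold higher. The chaperones Hspa5 (1.08) and Calr (0.936) were near the level of other myeloid cells.

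A subunit of cytochrome oxidase stood apart from its list. Cox6a2 encodes the subunit VIa form of heart and skeletal muscle; its gene lies at chromosome 7, 128205435 to 128206387, minus strand (GENCODE vM21, GRCm38). It had 1612 CPM at 12 weeks and 1197 CPM at 7 weeks in pDC, against 6.08 CPM at 12 weeks and 5.34 CPM at 7 weeks in other myeloid cells, a ratio of 251 (169 to 391). It was 162 with a Siglech limit of 5 UMIs, which also let barcodes with 3 or 4 into the comparison cells (338 in place of 335). Of the cells so moved, 1 held 12 Cox6a2 UMIs, against 25 in all comparison cells before. The ratio was 608 without the cell of each group that held most Cox6a2 UMIs. The other form of the subunit, Cox6a1, had a ratio of 0.994 (0.867 to 1.14), and the other 19 of 20 measured (20 listed) oxidative phosphorylation genes were neither higher nor lower (median log2 ratio over the list -0.11). A Cox6a2 UMI was in 93.8% of pDC, 2.09% of other myeloid cells, 0.528% of B cells and 0.588% of T cells. With each cell thinned to 1000 UMIs, which left out 0 cells, the shares were 67.2%, 0.299%, 0% and 0.157%. Of 15 measured glycolysis genes (15 listed), 0 were higher and 3 lower (Hk2, Tpi1 and Eno1). Hk2, a hexokinase, had 1 UMI in pDC, against 578 in other myeloid cells.

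Transcripts of dividing cells were scarce in pDC. Of 22 measured cell cycle genes (22 listed), 0 were higher and 9 lower, with a median log2 ratio of -1.75 (-1.84 at 12 weeks and -0.71 at 7 weeks). Top2a and Mki67, expressed in cycling cells, had 0 and 1 UMIs in all pDC, against 170 and 106 in other myeloid cells. Stmn1 had 1 UMI, against 467. Of 24 measured immediate-early and stress genes (25 listed), 2 were higher (Klf2 and Dnajb1) and 8 lower, among them Junb (0.213-fold of the other myeloid level) and Nfkbia (0.243).

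The 15 genes with the highest ratios, named by rule among 522 eligible genes, had ratios of 144 to 1108; Dntt and Cox6a2, described above, are 2 of them. Atp2a1, the calcium pump SERCA1 of fast muscle, had 103 and 30 UMIs in pDC at 12 and 7 weeks, against 1 and 0 in other myeloid cells. Its ratio of 1108 has an interval of 195 to 44092 because of that 1 UMI. Nrxn2 (a neurexin) had 60 UMIs in pDC, against 1 in other myeloid cells, and Hs3st1 (a heparan sulfate sulfotransferase) 52 against 1. Klk1, tissue kallikrein, had 1137 CPM at 12 weeks and 604 CPM at 7 weeks in pDC, against 2.70 CPM at 12 weeks and 3.05 CPM at 7 weeks in other myeloid cells, a ratio of 340.2 (193 to 663). A Klk1 UMI was in 89.1% of pDC, 3.28% of other myeloid cells, 0.923% of B cells and 0.706% of T cells, and in 50%, 0%, 0.132% and 0.0392% at 1000 UMIs per cell. Its relative Klk1b27 had 103 and 41 UMIs in pDC, against 1 and 4 in other myeloid cells (ratio 239.9, 100.5 to 750.2), and these near-identical genes could share reads. Fbxl13 had 59 UMIs in pDC, against 2, Paqr5 (a membrane progestin receptor) 82 against 3, Cacna1e (a calcium channel subunit) 49 against 2, Emid1 46 against 2 and Ccdc162 52 against 3. Pir (pirin, an iron-binding nuclear protein) was 181-fold higher, with 363 CPM at 12 weeks and 420.1 CPM at 7 weeks in pDC. D13Ertd608e was 155-fold higher, with 812 and 984 CPM. Sh3bgr, an SH3-domain-binding protein, had 45 and 19 UMIs in pDC and 0 in other myeloid cells. With the floor in place of 0 it was 178-fold higher, and the interval began at 140.

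The 15 genes with the lowest ratios, among 386 eligible, included Csf1r and Lyz2 of the macrophage list and Batf3 of the conventional dendritic cell list. Besides these and Cxcl9, Hk2 and Aif1, they were Ifitm1, Pglyrp1, Ffar2, S100a4, Bcl2a1a, Bcl2a1b, Bcl2a1d, Cd9 and Nav1. Lyz2 (lysozyme) had 38.4 CPM at 12 weeks and 104 CPM at 7 weeks in pDC, against 4999 CPM at 12 weeks and 2292 CPM at 7 weeks in other myeloid cells, a ratio of 0.0145 (0.00986 to 0.0206), or 0.0367 without the C1q cells. S100a4, a calcium-binding protein, had 11 UMIs in pDC, against 9438 in other myeloid cells. Pglyrp1, a peptidoglycan-binding protein, had 1 against 1160, and Cd9, a tetraspanin, 1 against 450. The Bcl2a1 genes encode survival proteins and are near-identical copies; they had 3, 4 and 3 UMIs in pDC for Bcl2a1a, Bcl2a1b and Bcl2a1d, against 1400, 2655 and 1804.

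Cdh5 and Pecam1, adhesion genes of endothelium, were higher in pDC than in other myeloid cells and gave most UMIs of their list. The 7 endothelial and stromal markers summed to 272 and 173 CPM in pDC, against 114 and 21.4 CPM in other myeloid cells. Cdh5 (VE-cadherin) had 180.1 CPM at 12 weeks and 121 CPM at 7 weeks in pDC, against 2.37 CPM at 12 weeks and 0 CPM at 7 weeks in other myeloid cells, a ratio of 97.6 (45.3 to 250.4), which rests on 7 UMIs in other myeloid cells. A Cdh5 UMI was in 51.6% of pDC, 0.896% of other myeloid cells, 0.396% of B cells and 0.196% of T cells, and in 14.1%, 0.299%, 0.132% and 0% after thinning. Pecam1 (CD31) was 4.11-fold higher, by 5.20 at 12 weeks and 2.32 at 7 weeks. Of the 122 UMIs of the list in pDC, Cdh5 gave 82 and Pecam1 36. Of the other 5 markers 3 were at 0, Emcn, a sialoprotein of endothelium, and Col3a1 among them.

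The pDC varied among themselves in Ly6d and the Cd209 lectins. All 64 held Siglech, Bst2, Tcf4 and Irf8 UMIs, with medians of 34.5 (range 11 to 80) for Bst2, 8 (1 to 18) for Tcf4 and 29 (6 to 58) for Irf8. Ly6d was at 0 in 29 pDC and at 5 or more UMIs in 19, 14 at 12 weeks and 5 at 7 weeks. In B cells, which express it, 67.0% of cells held a Ly6d UMI, against 2.63% of T cells. The following split was chosen after the values were seen. Cd209a had 210.0 CPM at 12 weeks and 339 CPM at 7 weeks in pDC with at least 5 Ly6d UMIs, against 636 and 920.0 CPM in pDC with none. The ratios were 0.330 (0.200 to 0.524) at 12 weeks and 0.368 (0.199 to 0.652) at 7 weeks. All 17 Cd209a UMIs of the Ly6d-high pDC at 7 weeks came from 1 cell. Ly6a had ratios of 2.05 (1.77 to 2.38) and 2.62 (2.08 to 3.32). However, 1 Ly6d-high cell held 146 of 388 Ly6a UMIs at 12 weeks and 1 held 151 of 262 at 7 weeks, the latter with only 3 Siglech UMIs. Without these 2 cells, left out after seeing the data, the ratios were 1.42 (1.20 to 1.68) and 1.29 (0.977 to 1.70). With the highest cell of each set left out they were 1.65 and 2.84. Cd209d was at 0.126 at 12 weeks and 0.774 at 7 weeks, so its size differed between libraries. Tcf4 was at 0.920 and 0.889, and Siglech at 0.953 and 0.868. The median depth of the Ly6d-high set was 7548.5 UMIs at 12 weeks and 9994 at 7 weeks, against 8922 and 10274 in pDC with none, and the part of depth in these ratios was not tested.

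The coreceptor and precursor genes were also uneven. A Cd8a UMI was in 40 of 64 pDC, with up to 48 UMIs in a cell, a Cd4 UMI in 44, and both in 31. Ptcra was found in 28 pDC, Dntt in 25 and both in 14. A Dntt UMI was in 0.299% of other myeloid cells, 0% of B cells and 0.157% of T cells, against 39.1% of pDC (4.69% of pDC at 1000 UMIs and 0%, 0% and 0% of the others). Tlr7 had a UMI in 60.9% of pDC, against 4.48% of other myeloid cells, 5.54% of B cells and 0.392% of T cells. At 1000 UMIs the Tlr7 shares were 7.81%, 0.597%, 1.19% and 0%.

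Between ages, pDC were compared by the ratio of 12 over 7 weeks among 2454 genes with at least 30 UMIs in pDC. At a size of at least 1.5-fold, 303 genes (12.3%) were higher and 181 (7.38%) lower at 12 weeks, and the interval lay wholly above 1 for 172 genes and wholly below 1 for 132. The median log2 ratio was 0.08 over these genes in pDC and 0.05 in the other myeloid cells. Tissue RNA moved with age as well: acinar markers summed to 195 and 23 CPM in pDC at 12 and 7 weeks, and to 249 and 33 CPM in T cells, and endocrine markers to 248 and 86.3 CPM in pDC. In the other myeloid cells of 12 weeks, 1 barcode held 15232 of 25449 Gcg UMIs. The part of tissue RNA in the ratios was not tested, and 1 library per age means that age, mice and preparation cannot be told apart.

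The measured pDC transcription factors and the markers Bst2, Tcf4 and Ccr9 differed between ages by less than 1.5-fold. Among the 15 genes with the highest ratios over other myeloid cells, Klk1, Atp2a1 and Dntt passed 1.5-fold and the others did not. The age ratio was 1.88 (1.51 to 2.36) for Klk1, 1.76 (1.16 to 2.74) for Atp2a1 and 2.62 for Dntt. Of 13 measured pDC transcription factors, 0 were higher and 0 lower at 12 weeks, with a median log2 ratio of 0.17. The age ratios of the markers were 1.11 for Bst2 (1.02 to 1.21), 0.960 for Tcf4 (0.801 to 1.15) and 1.07 for Ccr9 (0.866 to 1.32). Of 20 oxidative phosphorylation genes, 0 passed 1.5-fold, Cox6a2 included (1.35, 1.15 to 1.59). Of 22 surface genes, 3 were higher at 12 weeks and 1 lower: Cd7 (1.61), Cd8a (1.62) and Cd300a (1.75) were higher and Itgal (0.634, 0.318 to 1.28) lower. In the type I interferon response, 0 of 11 measured genes were higher and 1 was lower, Ifi203 (0.524, 0.340 to 0.809).

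Lymphoid precursor genes and receptors of phagocytes were higher at 12 weeks in part. Of 12 lymphoid genes, 5 were higher and 2 lower. Ptcra had 129.9 CPM at 12 weeks and 34.5 CPM at 7 weeks, with a ratio of 3.76 (1.60 to 10.8). Dntt had 136 and 51.8 CPM, a ratio of 2.62 (1.27 to 6.09). Il7r had a ratio of 1.58 (1.14 to 2.23), and Cd38 and Jchain were past 1.5-fold as well, whereas Cd72 and Btla were lower (0.428 and 0.609). Of 8 Fc and phagocytic receptors, 5 were higher and 0 lower, with a median log2 ratio of 0.66. Itgb2, the beta chain of LFA-1 and Mac-1, had 186 and 63.3 CPM (2.94; 1.54 to 6.18). Clec12a was 2.18-fold and Cd68, a lysosomal protein, 1.62-fold higher at 12 weeks, with myeloid ratios of 1.12 for Itgb2, 1.26 for Clec12a and 1.19 for Cd68.

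Secretory genes passed 1.5-fold no more often than all measured genes (12.3% higher and 7.38% lower), and stress genes differed in part. Of 43 secretory genes, 4 were higher and 0 lower at 12 weeks: Pdia4, a disulfide isomerase (2.80, 1.46 to 5.90), Spcs1 (1.97), Spcs3 (1.74) and Tmed3 (1.73). Of 17 immediate-early and stress genes, 3 were higher and 4 lower. Jun had 1969 CPM at 12 weeks and 1157 CPM at 7 weeks in pDC, a ratio of 1.70 (1.45 to 2.0), against 0.928, 0.790 and 0.978 in other myeloid, B and T cells. Ier5, an immediate-early gene, had 79.7 and 426 CPM, a ratio of 0.187 (0.116 to 0.294), and its ratio was 0.223 in other myeloid cells, 0.144 in B cells and 0.201 in T cells. The heat shock gene Hspa1b was lower in all 4 cell groups (0.451 in pDC, 0.342 in other myeloid cells, 0.298 in B cells and 0.341 in T cells). Ier5 and Hspa1b differed between libraries in every group, and Jun passed 1.5-fold in pDC alone of the 4 groups, a difference that was not tested. Of the endosomal sensing genes, Tlr7 had 142 and 80.6 CPM, a ratio of 1.76 whose interval of 0.954 to 3.45 contained 1, and Lgmn, a lysosomal protease, was 3.59-fold higher (1.62 to 9.40).

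**Figure D5:**
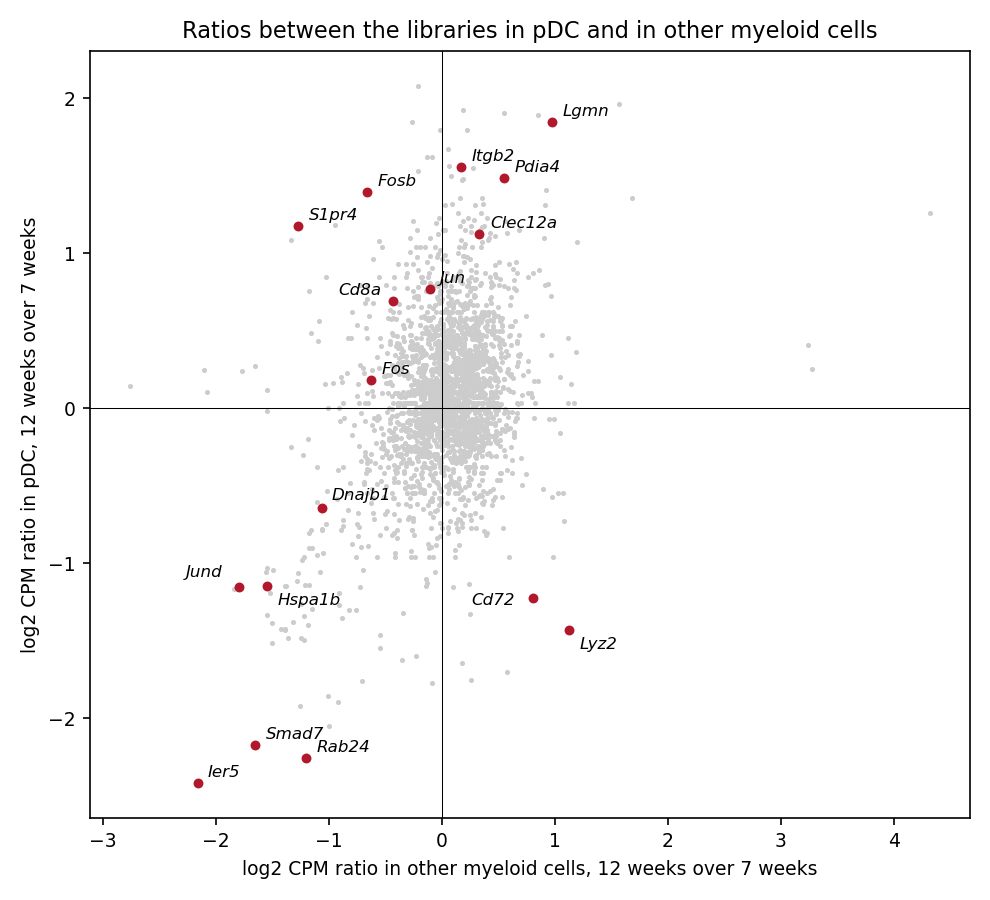
Log2 CPM ratio of 12 over 7 weeks in pDC (vertical axis) and in the other myeloid cells (horizontal axis), 1 point for each of 2398 genes measured in both, with some genes of the text labelled. Ier5, Rab24, Smad7 and Hspa1b lie below 0 on both axes, and Fosb and S1pr4 lie above 0 in pDC and below 0 in the other myeloid cells.

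By the rule for naming, the 10 highest age ratios in pDC lay between 3.39 and 4.23. With the 21 set-aside barcodes with CD3 UMIs added to the pDC, 6 of the 10 moved by over 1.5 times, to 2.34 for Clec2d, 2.14 for Degs1, 2.14 for Nsun2, 2.14 for Dnlz, 1.84 for Smarce1 and 1.58 for Bcap29. Clec2d, a ligand of the inhibitory receptor NKR-P1, had 33 UMIs at 12 weeks and 4 at 7 weeks (4.23; 1.51 to 16.4), with ratios of 0.863, 0.763 and 1.06 in other myeloid, B and T cells. Degs1, a sphingolipid desaturase, had 51 and 7 UMIs (3.74), and Cdkn1b (p27), an inhibitor of the cell cycle, 28 and 4 (3.59). Smarce1, Nsun2, Bcap29, Dnlz and Nrip2 had 27 to 37 UMIs at 12 weeks and 4 or 5 at 7 weeks, and Ptcra and Lgmn are given above. Without the cell of each library that held most of its UMIs, the ratio of Smarce1, Nsun2 and Nrip2 was higher by more than 1.5 times. In other myeloid cells the age ratio was 1.96 for Lgmn (1.57 to 2.47), 1.80 for Nsun2 (1.28 to 2.59) and 1.46 for Degs1 (1.15 to 1.88). There Smarce1, Dnlz, Bcap29 and Cdkn1b were at 1.14, 1.17, 0.990 and 0.834, with intervals that contained 1. Ptcra and Nrip2 had 0 and 1 UMIs in other myeloid cells. The 10 lowest ratios in pDC were those of Ier5, Rab24, Smad7, Mycbp2, Polr2m, Gnl3, Psme2b, Stip1, Tmem176a and Limd2. Of these, Rab24, Mycbp2, Gnl3 and Tmem176a were at 0.315, 0.452, 0.468 and 0.576 with the set-aside barcodes added. Rab24, a small GTPase, had 11 and 27 UMIs in pDC at 12 and 7 weeks (0.209; 0.0936 to 0.435), against ratios of 0.434, 0.291 and 0.339 in other myeloid, B and T cells. Smad7, an inhibitor of TGF-beta signalling, had 16 and 37 UMIs (0.222; 0.115 to 0.409), against 0.318, 0.436 and 0.375. Both were lower at 12 weeks in each of the 4 cell groups. So were Mycbp2 (0.529, 0.607 and 0.661 in other myeloid, B and T cells), Polr2m (0.498, 0.522 and 0.531) and Psme2b (0.612, 0.616 and 0.510). In other myeloid cells Gnl3, Stip1, Tmem176a and Limd2 were at 0.940, 1.20, 1.49 and 1.13. Tmem176a, a membrane protein of dendritic cells, had 15 and 25 UMIs in pDC, of which 42.5% came from 1 cell. That cell is the pDC with 3 Siglech and 151 Ly6a UMIs. The Tmem176a ratio in pDC was 0.573 without the cell of each library that held most of its UMIs, against 0.308 with all cells.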

How the data were processed

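The data are UMI counts per gene and cell barcode of 2 droplet libraries (10x Genomics Chromium 3′ chemistry, per the labels' protocols), deposited by the authors as unnormalised matrices after Cell Ranger 1.3.1 with the mm10 genome, per the submitters' processing notes. Reads of the NOD strain were thus counted against a C57BL/6J reference, and the effect of strain differences on the counts was not tested. UMIs count PCR copies of a molecule once. Intervals and floors cover counting error only. Each library stands for 1 age, and no batch label is given. Genes of immunoglobulin chains and of the alpha, beta, gamma and delta chains of the T cell receptor are not described here. Ptcra, the pre-T cell receptor alpha chain, is described.

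Cells were chosen by the UMI limits given with the results, and UMIs were summed per cell group and library and divided by the group's total to give CPM. Ratios carry exact conditional binomial 95% intervals and shares exact Clopper-Pearson intervals; a group at 0 was set at 3 counts. Genes needed at least 30 UMIs over the groups compared. B cells were barcodes with at least 5 Cd79a UMIs and at most 1 CD3 UMI, T cells those with at least 3 CD3 UMIs and at most 2 Cd79a UMIs, both with at most 2 Siglech UMIs. The rule for cells and the gene lists were chosen with earlier results of these data known. Named by rule were the 15 highest and 15 lowest ratios of pDC over other myeloid cells among genes at least 2-fold in each library with a UMI in at least 25% of the higher group, and the 10 highest and 10 lowest age ratios in pDC of at least 1.5-fold whose interval left out 1 and of which no cell held over 50% of the UMIs. Mitochondrial, ribosomal, haemoglobin, tissue and predicted genes and the genes of the rule for cells were left out of naming. The split of pDC by Ly6d, and leaving out its highest cells, were chosen after the values were seen.

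Doublets were kept: Scrublet (in scanpy 1.11.5) marked 22 barcodes at 12 weeks and 2 at 7 weeks, of which 0 were pDC and 1 was another myeloid cell. Python 3.11.15, numpy 2.4.6, scipy 1.17.1, pandas 2.3.3 and matplotlib 3.10.9 were used, and the ratio and call steps were tested on simulated data. Alternatives were other Siglech, H2-Aa and quality limits, other comparison cells, other scalings, other limits on low counts, thinning to 1000 UMIs, each library alone, and leaving out the cell with most UMIs of a gene. Gene positions are from GENCODE vM21, which held 27722 of 27998 gene identifiers.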

Additional observations from a re-analysis of the deposited data

Results flagged for a closer look

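Only genes of the text and genes named by rule were looked at here. In 4 of them the ratio of 12 over 7 weeks passed 1.5-fold in opposite directions in pDC and in the other myeloid cells. Both intervals of each gene left out 1, and the difference itself was not tested. Cd72, an inhibitory receptor of B cells, was at 0.428 in pDC and 1.75 in other myeloid cells. Its pDC levels were 44.3 CPM at 12 weeks and 104 CPM at 7 weeks. Fosb, an immediate-early factor, was at 2.63 in pDC and 0.631 in other myeloid cells, with 242 and 92.1 CPM in pDC, and 43.8% of its 7 week pDC UMIs came from 1 cell. S1pr4 was at 2.26 in pDC and 0.414 in other myeloid cells; among other myeloid cells with at most 1 CD3 UMI it was 0.907, with an interval of 0.351 to 2.76. Lyz2 was at 0.371 in pDC and 2.18 in other myeloid cells, but 88.9% of its 18 pDC UMIs at 7 weeks came from 1 cell. Without the cell of each library that held most Lyz2 UMIs, the pDC ratio was 2.78.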

How the results depend on the processing

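The number of pDC was 62 to 65 under other Siglech limits, quality limits and removal of marked doublets, against 64. It was 85 with any number of CD3 UMIs, an alternative chosen after seeing the data. With each cell thinned to 1000 UMIs, 150 genes were higher and 97 lower in pDC than in other myeloid cells, and 46 were higher and 26 lower at 12 weeks, among 1797 and 323 genes that then passed the limit of 30 UMIs. Of these, 116 and 72 were shared with the unthinned counts between cell groups, but only 9 and 13 with those between ages. With a limit of 10 UMIs, 1657 genes were higher in pDC, and 1123 were higher and 835 lower at 12 weeks. With any UMI these counts were 5813, 2431 and 3529. The count of genes lower in pDC than in other myeloid cells was 563 at both limits. Counts at these limits rest in part on the floor. A gene at 0 in both cell groups at 7 weeks had a ratio of 7.54 there. A gene with 1 UMI at 12 weeks and 0 at 7 weeks in pDC had an age ratio of 0.171. In the 12 week library alone 1193 genes were lower in pDC. With any number of CD3 UMIs allowed in pDC, 503 genes were higher and 354 lower at 12 weeks, of which 185 and 115 were shared with the genes counted under the limit. In that set Ccl5 and Cd5 were higher than in other myeloid cells (ratios 1.14 and 1.61), the age ratio of Btla was 1.03, and those of Itgb2 and Dntt were 1.74 and 4.76. Of 161 genes named in the text and counted as higher or lower in pDC, 76 had a ratio in 1 library alone that differed by over 1.5 times from the pooled ratio, in the direction of the call in each library. Without the cell of each library that held most Lyz2 UMIs, the age ratio of Lyz2 was 2.78. Other counts stayed within 1.5 times of those reported. Over all alternatives, 20 values of list medians for pDC over other myeloid cells moved by over 1.5 times and 280 did not, and for age 10 did and 205 did not. Of the pDC, 0 held over 2% of UMIs from acinar, endocrine or erythroid markers, so leaving such cells out removes none. No paired analysis was possible because each age has 1 library. Depth limits the age ratios, which rest on 44 and 20 pDC.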
